A study of Mus musculus with 24 samples.

Results

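The circadian clock genes Per1, Per2, Per3, Cry1, Cry2, Arntl, Clock, Nr1d1, Nr1d2 and Dbp were followed in cultured mouse cortical neurons given the neurotrophin BDNF, the BET inhibitor IBET858, or both. The genes were chosen by name, and every probe set annotated to 1 of them alone was kept. This gave 10 of the 18193 genes tested and 23 of the 45101 probe sets in the table. Each of the 10 genes was measured: Per1, Cry1, Cry2 and Nr1d1 by 1 probe set each, Arntl, Nr1d2 and Dbp by 2 each, Per2 by 3, Clock by 4 and Per3 by 6.

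The clock is a feedback loop of transcription. The proteins ARNTL (also called BMAL1) and CLOCK pair on E-box sequences and switch on the Per and Cry genes, whose products return to the nucleus and hold that pair back. The nuclear receptors NR1D1 and NR1D2 repress Arntl, and DBP drives output genes through D-box sequences. In neurons Per1 and Per2 are also known as rapid response genes, raised by stimuli that act through the factor CREB.

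Neurons came from the cortex of mouse embryos at E18 and were treated after 1 week in culture. The 8 groups were, at 2 h and again at 12 h, DMSO as the solvent control, 1 µM IBET858, 50 ng per ml BDNF, and both agents together at those same doses. Each group had 3 arrays, 24 in all. IBET858 blocks the bromodomains of BET proteins, which read acetylated histones, and BDNF signals through the TrkB receptor. Strain, sex of the embryos and pooling of animals are not given in the labels. The labels number the arrays of a group without stating that these were separate cultures. The p-values then measure only the spread between these samples, which may be technical. With 2 time points no period or phase of a rhythm can be computed.

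Values are log2 intensities that had been centred, for each probe set, on its median over the 24 arrays. A value of 0 is therefore the middle of that gene's own arrays, levels of different genes cannot be compared, and the presence of a cell type cannot be checked from its markers. The value of a gene is the mean of its probe sets. A change is the log2 difference of 2 group means ± the standard error of the limma model, with n = 3 arrays per group, and it was called where its adjusted p over all 18193 genes lay under 0.05. Arrays are listed in the order of their replicate numbers, which carry no order in time.

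One control array stood apart. Replicate 1 of DMSO at 2 h had the widest spread around its group mean over all genes, an SD of 0.178 against 0.072 to 0.157 on the other 23 arrays. The mean of the 5 astrocyte markers (Gfap, Aqp4, Aldh1l1, Slc1a3, Gja1) was 0.663 on that array and 0.578 on DMSO replicate 1 at 12 h, against -0.0171 to 0.109 on the other DMSO arrays. The SD of 0.157, the next widest, was that of IBET858 replicate 3 at 12 h. Its mean of the 5 neuron markers was -0.52, against -0.254 and -0.231 on replicates 1 and 2 of its group. Marker genes were also called with treatment, mostly at 12 h. There 48.7% of all genes were called with IBET858, 41.0% with BDNF and 53.0% with both agents against DMSO. Of 5 neuron markers 3 were lower with IBET858 than with DMSO at 12 h, as were 3 of 5 astrocyte markers. With BDNF, and likewise with both agents, 2 neuron markers were higher and 3 lower. Astrocyte markers were lower for 2 of 5 with BDNF and for 4 of 5 with both. At 12 h 2 of 5 microglia markers were lower with IBET858, and with BDNF 3 of 5 progenitor markers were higher and 1 lower. Several of these 12 h counts lie near the shares over all genes. At 2 h 1 of 4 vascular markers was 3.6 higher with both agents than with DMSO, where 41.8% of all genes were called. The spiked poly-A control probe sets were 0.956 higher on the log2 scale with IBET858 than with DMSO at 12 h, and 0.556 higher with both agents than with BDNF. The part of these shifts in the results below was not tested, except where a value without an array is given. In such cultures fewer cells of a type and less RNA per cell cannot be told apart.

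RefSeq promoter windows (build GRCm38.p6, 250 bases before to 50 after an annotated start) were held for 9 of the 10 genes, 13 windows in all. Per2 was not among them. Both strands were searched for the E-box CACGTG, the related E-prime-box CACGTT, the D-box as TTATGTAA or TTACGTAA, the CREB element TGACGTCA, its core TGACG, which every full element also holds, and the ROR element TAGGTCA, which NR1D receptors also bind. Among all 32851 windows of this length, 7.15% held an E-box, 4.68% an E-prime-box, 1.06% a D-box, 1.79% a full CREB element, 20.8% its core and 2.61% a ROR element. The 5 windows below belong to genes that rose with BDNF at 2 h (Per1, Cry1) or with IBET858 (Per3, Arntl) and hold at least 1 of these motifs, shown in capitals.
Per1 first window, chr11:69098699-69098998, plus strand: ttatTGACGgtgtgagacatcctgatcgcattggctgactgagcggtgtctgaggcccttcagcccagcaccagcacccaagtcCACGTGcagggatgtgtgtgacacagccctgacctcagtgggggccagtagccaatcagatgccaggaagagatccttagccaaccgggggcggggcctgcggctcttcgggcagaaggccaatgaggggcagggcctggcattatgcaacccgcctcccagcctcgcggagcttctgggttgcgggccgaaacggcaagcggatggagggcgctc
Per1 second window, chr11:69099902-69100201, plus strand: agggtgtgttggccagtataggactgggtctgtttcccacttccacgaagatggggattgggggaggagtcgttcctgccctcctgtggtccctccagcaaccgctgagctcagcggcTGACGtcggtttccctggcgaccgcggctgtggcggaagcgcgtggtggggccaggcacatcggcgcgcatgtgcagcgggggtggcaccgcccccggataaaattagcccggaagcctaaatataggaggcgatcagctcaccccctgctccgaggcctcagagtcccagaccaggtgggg
Cry1, chr10:85185005-85185304, minus strand: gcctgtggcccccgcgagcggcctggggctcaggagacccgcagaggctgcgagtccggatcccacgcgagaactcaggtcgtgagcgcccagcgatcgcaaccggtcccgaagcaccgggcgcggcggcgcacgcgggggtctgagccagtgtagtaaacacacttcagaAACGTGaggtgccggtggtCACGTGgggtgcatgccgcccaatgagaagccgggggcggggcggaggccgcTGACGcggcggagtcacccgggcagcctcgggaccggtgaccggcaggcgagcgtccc
Per3, chr4:151044616-151044915, minus strand: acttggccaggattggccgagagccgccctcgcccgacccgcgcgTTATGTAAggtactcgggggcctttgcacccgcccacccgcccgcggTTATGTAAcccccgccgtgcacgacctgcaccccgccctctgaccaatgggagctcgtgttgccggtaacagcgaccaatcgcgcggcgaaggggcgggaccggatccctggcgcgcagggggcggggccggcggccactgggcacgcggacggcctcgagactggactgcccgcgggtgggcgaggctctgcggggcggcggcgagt
Arntl second window, chr7:113207261-113207560, plus strand: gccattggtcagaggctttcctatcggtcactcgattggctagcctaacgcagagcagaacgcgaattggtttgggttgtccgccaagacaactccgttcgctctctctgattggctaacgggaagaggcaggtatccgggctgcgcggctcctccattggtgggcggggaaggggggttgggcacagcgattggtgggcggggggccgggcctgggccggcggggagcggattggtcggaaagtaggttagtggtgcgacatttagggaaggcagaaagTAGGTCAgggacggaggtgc
The first Per1 window has an E-box 166 bases and a CREB core 246 bases before the start, and the second has a CREB core 132 bases before it. The Cry1 window holds an E-box, an E-prime-box and a CREB core at 60, 79 and 8 bases before the start. Per3 has a pair of D-boxes, 205 and 158 bases before the start, and the second Arntl window has a ROR element 31 bases after it. The Cry2 window held an E-prime-box and a CREB core, and the Nr1d1 window an E-prime-box. The windows of Clock, Dbp and Nr1d2 held none of the 6 motifs. A match is a description of letters only, and no match says only that these letters are not in the window.

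At 2 h BDNF raised the repressors Per1, Per2 and Cry1 and lowered the activator Arntl, so 4 of the 10 genes were called, where 27.9% of all genes were called. IBET858 alone moved 2 of the 10, Clock lower and Per3 higher, against a background of 14.9%. BDNF with IBET858 differed from DMSO in 6 of the 10, with Per1, Per2 and Per3 higher and Clock, Nr1d2 and Dbp lower, where 41.8% of all genes were called. These 3 comparisons share the same DMSO arrays, as do those at 12 h. Set against BDNF alone, BDNF with IBET858 was lower for Per1, Per2, Cry1 and Clock and higher for Per3, which made 5 of 10 against a background of 27.1%. Set against IBET858 alone, 5 of 10 were called, Per1 and Per2 higher and Cry2, Arntl and Dbp lower, where the background was 21.2%. The median change of the 10 genes was 0.0153 with BDNF, 0.0697 with IBET858 and -0.103 with both against DMSO, beside -0.00426, 0.0229 and 0.0326 over all genes.

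At 12 h Dbp and Nr1d2 were lower with each treatment. BDNF lowered Dbp, Nr1d2 and Per3 and raised Per1, Per2, Cry1 and Clock, 7 of 10 genes where 41.0% of all genes were called. IBET858 raised Per3, Cry1 and Arntl and lowered Nr1d2 and Dbp, 5 of 10 where 48.7% were called. BDNF with IBET858 raised Cry1, Arntl, Per3, Clock and Per2 and lowered Nr1d2 and Dbp, 7 of 10 where 53.0% were called. Against BDNF alone, the combination was higher for Per3, Cry1, Arntl and Nr1d1 and lower for Per1 and Nr1d2, 6 of 10 against a background of 46.8%. Against IBET858 alone it was higher for Per2, Cry1 and Clock and lower for Per3, Nr1d2 and Dbp, 6 of 10 against 39.3%. The share called was near the background with IBET858 alone and higher in the other 4 of these comparisons. With 10 genes in each share and no test of the difference, this is not read as a result. With 1 array left out the counts ran from 5 to 7 for BDNF and 7 to 8 for both against DMSO. They ran from 4 to 7 for both against BDNF and likewise against IBET858.

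**Figure D1:**
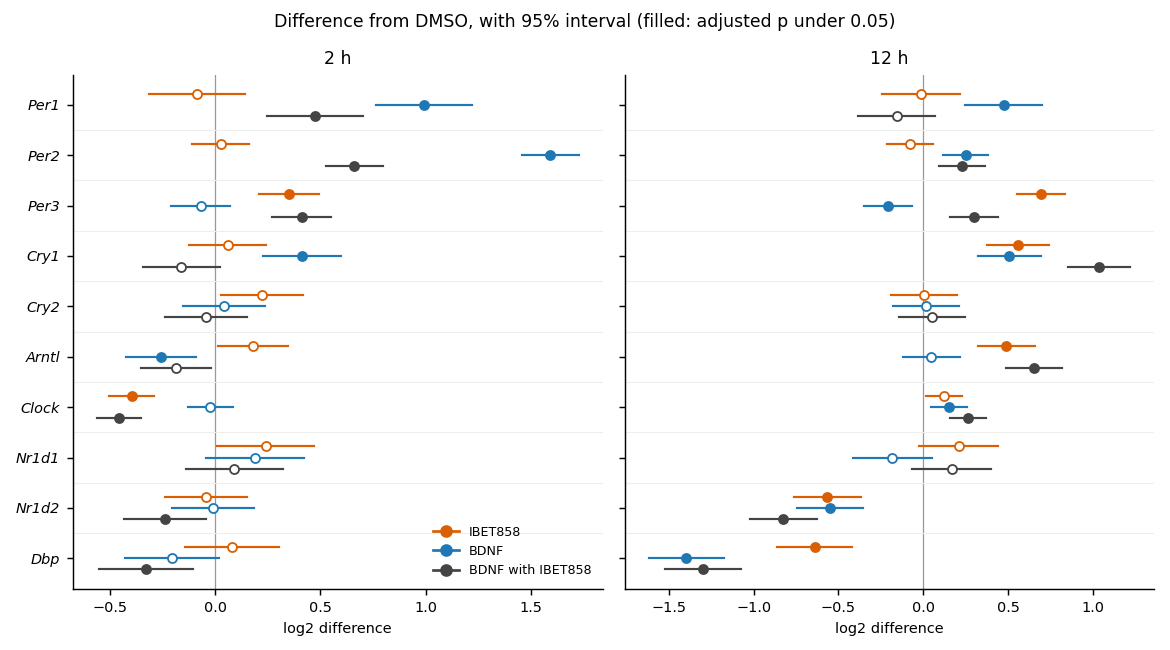
Log2 difference of each clock gene from DMSO at 2 h (left) and 12 h (right) with its 95% interval, for IBET858, BDNF and BDNF with IBET858; filled points had an adjusted p under 0.05 and scales differ between panels. Per2 stands farthest to the right at 2 h (1.59 with BDNF), and Dbp farthest to the left at 12 h (-1.40 with BDNF).

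Per2, a repressor of the loop, had the largest response to BDNF among the 10 genes. At 2 h its arrays read -0.12, 0.06 and 0.12 with DMSO, 0.07, -0.05 and 0.10 with IBET858, 1.67, 1.52 and 1.64 with BDNF, and 0.70, 0.73 and 0.60 with BDNF and IBET858. The 3 BDNF arrays were the highest of all 24, the 3 arrays with both agents came next without overlap, and DMSO and IBET858 overlapped. BDNF raised Per2 by 1.59 ± 0.065 (3.01-fold, adjusted p = 7.02e-14), the 83rd largest change of the 18193 genes. In the presence of IBET858 the rise was 0.63 ± 0.065 (1.55-fold, adjusted p = 1.98e-07). IBET858 alone changed Per2 by 0.03 ± 0.065, with a 95% interval of -0.11 to 0.16. Between BDNF with and without IBET858 the level fell by 0.93 ± 0.065 (1.91-fold, adjusted p = 2.5e-10).

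Each of the 3 Per2 probe sets rose with BDNF at 2 h, by 1.85, 1.23 and 1.69. Under BDNF with IBET858 they fell apart in size, to 0.37, 0.46 and 1.15 above DMSO. Against IBET858 alone 2 of the 3 were called higher and 1 was not called, with rises of 0.26 to 0.97. At 12 h the Per2 arrays read -0.34, -0.22 and -0.27 with DMSO, 0.01, -0.02 and -0.07 with BDNF, and -0.35, -0.30 and -0.43 with IBET858. The BDNF arrays lay above the DMSO arrays without overlap, at a remaining difference of 0.25 ± 0.065 (1.19-fold, adjusted p = 0.00334). Of the 3 Per2 probe sets 1 was called higher in this comparison and 2 were not called, with changes of 0.04 to 0.42. The combination stood 0.23 ± 0.065 above DMSO (adjusted p = 0.0049), and this call was lost when arrays were centred on the reference genes (0.12, adjusted p = 0.0987). Of those 10 reference genes 4 were themselves called higher and 2 lower in this comparison, where 53.0% of all genes were called. With IBET858 alone at 12 h the Per2 probe sets pointed in different directions, 1417602_at by -0.41 (adjusted p = 0.00306 over all probe sets) and 1457350_at by 0.25 (adjusted p = 0.073).

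Per1, the other rapidly induced repressor, followed Per2 at a smaller size. Its arrays at 2 h read -0.36, 0.30 and 0.26 with DMSO, -0.03, -0.06 and 0.03 with IBET858, 1.07, 1.08 and 1.02 with BDNF, and 0.50, 0.56 and 0.56 with both. DMSO replicate 1, the array that stood apart, lay far below the other DMSO arrays, and the arrays within each other group lay close together. BDNF raised Per1 by 0.99 ± 0.11 (1.99-fold, adjusted p = 4.03e-07), and without that DMSO array by 0.78 (adjusted p = 6.64e-09). The combination exceeded DMSO by 0.47 ± 0.11 (1.39-fold, adjusted p = 0.00151), which became 0.26 without that array and was no longer called when only the groups of the contrast were fitted (adjusted p = 0.0634). Adding IBET858 to BDNF lowered Per1 by 0.52 ± 0.11 (1.43-fold, adjusted p = 0.000932). IBET858 alone gave -0.09 ± 0.11 (adjusted p = 0.674), and -0.30 without that array, which was then called (adjusted p = 0.00151).

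At 12 h the BDNF arrays of Per1 were at 0.14, 0.09 and 0.14, above DMSO at -0.42, -0.22 and -0.42. The combination was lowest, at -0.49, -0.53 and -0.51, and IBET858 at -0.46, -0.36 and -0.28 overlapped DMSO. BDNF raised Per1 by 0.47 ± 0.11 (1.39-fold, adjusted p = 0.00124), whereas BDNF with IBET858 differed from DMSO by -0.16 ± 0.11 (adjusted p = 0.255). Set against BDNF alone, the combination was 0.63 ± 0.11 lower (1.55-fold, adjusted p = 4.74e-05). Its difference from DMSO was called without DMSO replicate 1 at 2 h, through the smaller spread (adjusted p = 0.02).

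Per3, a period gene with D-boxes in its window, rose with IBET858 at both times. At 2 h its arrays read -0.18, -0.31 and -0.24 with DMSO, 0.11, 0.10 and 0.11 with IBET858, -0.24, -0.29 and -0.40 with BDNF, and 0.13, 0.16 and 0.22 with both. Arrays with IBET858 were above 0 and arrays without it below 0, with no overlap. The change was 0.35 ± 0.068 with IBET858 (1.28-fold, adjusted p = 0.000739) and 0.48 ± 0.068 when IBET858 was added to BDNF (1.39-fold, adjusted p = 8.91e-06). With the median of the probe sets in place of their mean, the former was 0.27 and no longer called (adjusted p = 0.0543).

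At 12 h Per3 reached 0.44, 0.75 and 0.56 with IBET858, the 3 highest arrays of the 24, against -0.15, -0.05 and -0.14 with DMSO. The rise was 0.69 ± 0.068 (1.62-fold, adjusted p = 2.19e-08). BDNF lowered Per3 by 0.21 ± 0.068 (1.15-fold, adjusted p = 0.0184), a call lost without DMSO replicate 2, BDNF replicate 2 or BDNF replicate 3 at 12 h (adjusted p = 0.0841, 0.0701 and 0.0761 in turn). Added to IBET858, BDNF lowered Per3 by 0.39 ± 0.068 (1.31-fold, adjusted p = 7.48e-05), from 0.58 to 0.19. The combination still exceeded DMSO by 0.30 ± 0.068 (1.23-fold, adjusted p = 0.000638) and BDNF alone by 0.51 ± 0.068 (1.42-fold, adjusted p = 1.65e-06).

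Cry1, the cryptochrome that represses with the PER proteins, rose with BDNF alone at 2 h and was lowest with both agents. Its arrays read -0.14, -0.16 and -0.03 with DMSO, 0.15, -0.08 and -0.21 with IBET858, 0.31, 0.29 and 0.31 with BDNF, and -0.27, -0.22 and -0.31 with both. The BDNF arrays were above those of the other 2 h groups and the combination arrays were below them, with no overlap. BDNF gave 0.41 ± 0.088 (1.33-fold, adjusted p = 0.00105), and adding IBET858 to BDNF gave -0.57 ± 0.088 (1.49-fold lower, adjusted p = 2.57e-05). BDNF on top of IBET858 gave -0.22 ± 0.088 (adjusted p = 0.0837).

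At 12 h the 2 agents each raised Cry1, and the combination raised it more. The arrays were -0.57, -0.32 and -0.34 with DMSO, 0.18, 0.27 and -0.01 with IBET858, 0.01, 0.20 and 0.08 with BDNF, and 0.55, 0.58 and 0.75 with both. DMSO was lowest, the single agents overlapped each other, and the combination arrays were the 3 highest of the 24. The changes from DMSO were 0.56 ± 0.088 (1.47-fold, adjusted p = 1.63e-05), 0.51 ± 0.088 (1.42-fold, adjusted p = 6.7e-05) and 1.04 ± 0.088 (2.05-fold, adjusted p = 1.34e-09). The combination also exceeded BDNF alone by 0.53 ± 0.088 and IBET858 alone by 0.48 ± 0.088 (adjusted p = 2.94e-05 and 0.000155).

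Cry2, the other cryptochrome, showed small differences. Against DMSO its differences ran from -0.04 to 0.22 at 2 h and from 0.01 to 0.05 at 12 h, and none of these 6 was called by limma. IBET858 at 2 h was the 1 of the 6 with an unadjusted value under 0.05 (0.22 ± 0.093, adjusted p = 0.124). The arrays were 0.42, 0.31 and 0.26 there, above those of DMSO at -0.03, 0.22 and 0.13. Without IBET858 replicate 3 at 12 h, which lay at -0.48 beside 0.03 and -0.05, this 2 h difference was called (adjusted p = 0.015) and the IBET858 difference at 12 h was 0.17 in place of 0.01 (adjusted p = 0.0587). The latter was called when DMSO replicate 1 at 2 h was left out as well (adjusted p = 0.0263), and with array weights the combination at 2 h was called lower at -0.14 (adjusted p = 0.0456). BDNF with IBET858 against IBET858 at 2 h was called lower at -0.27 ± 0.093 (adjusted p = 0.0466). That call was lost with a replicate block, under centring on array medians and in most fits without 1 array, at an adjusted p of up to 0.181 without IBET858 replicate 1 at 2 h.

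**Figure D2:**
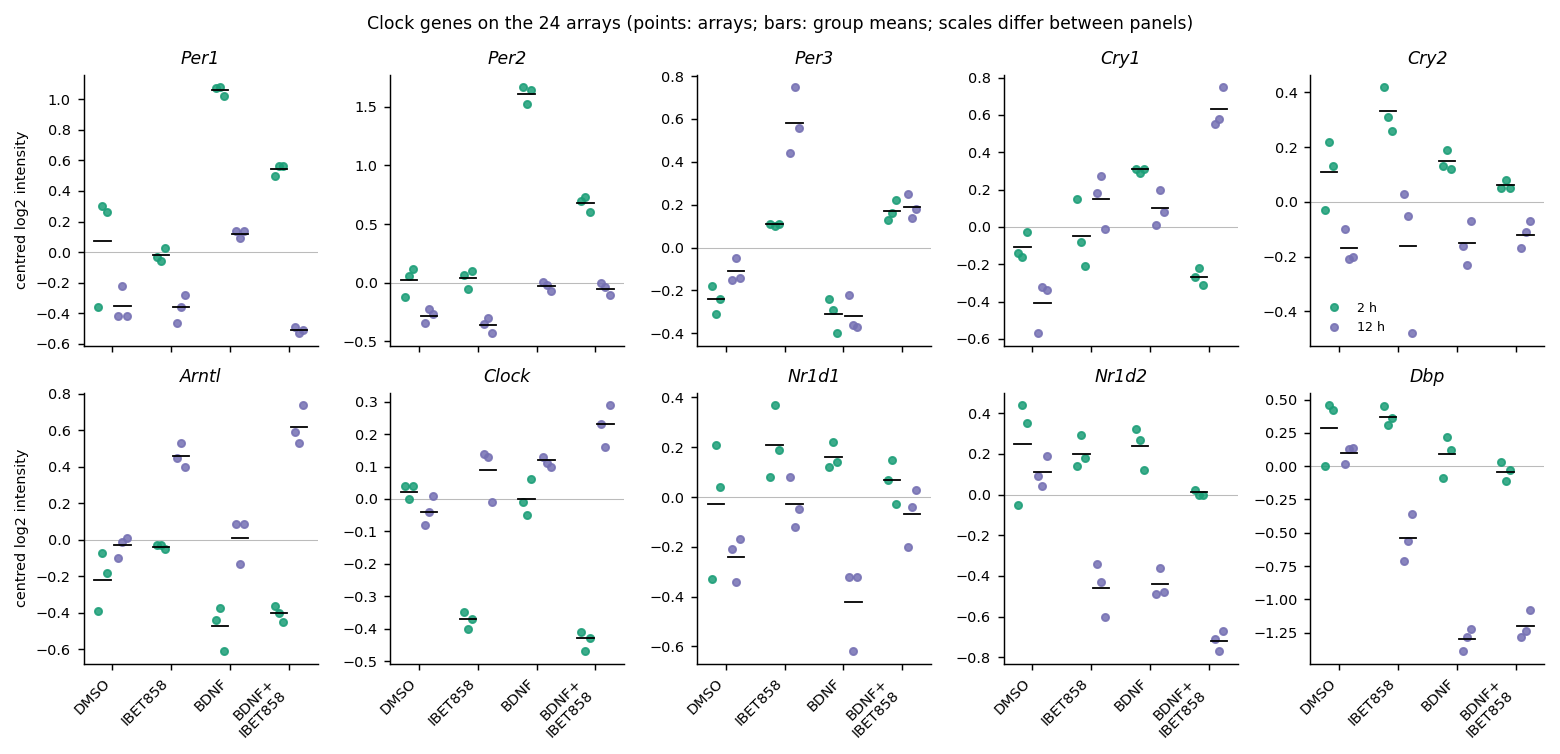
Centred log2 intensity of the 10 clock genes on each of the 24 arrays (points; green 2 h, violet 12 h) by treatment, with bars for the mean of 3 arrays; scales differ between panels. The 3 BDNF arrays at 2 h lie above all others for Per1 (1.02 to 1.08) and Per2 (1.52 to 1.67), and the Dbp arrays at 12 h with BDNF lie between -1.39 and -1.22.

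Clock, the activator that partners ARNTL, was lower at 2 h wherever IBET858 was present: its arrays were 0.04, 0.00 and 0.04 with DMSO and -0.01, -0.05 and 0.06 with BDNF, but -0.35, -0.40 and -0.37 with IBET858 and -0.41, -0.47 and -0.43 with both. The 6 arrays with IBET858 did not overlap the 6 without it. IBET858 lowered Clock by 0.40 ± 0.051 (1.32-fold, adjusted p = 5.02e-06), and by 0.43 ± 0.051 on top of BDNF (1.35-fold, adjusted p = 6.02e-07). All 4 Clock probe sets fell with IBET858 at 2 h, by 0.27 to 0.49. On top of BDNF 2 of the 4 were called lower and 2 were not called, with changes of -0.74 to -0.14.

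The Clock probe sets split under BDNF at 2 h. The change of their mean was -0.02 ± 0.051, while probe sets 1418660_at and 1435775_at fell by 0.31 and 0.40 (adjusted p = 0.000102 and 3.52e-05 over all probe sets), 1439314_at rose by 0.30 (adjusted p = 0.0297) and 1418659_at stood at 0.33 (adjusted p = 0.0918). At 12 h Clock was 0.15 ± 0.051 higher with BDNF (adjusted p = 0.0204) and 0.26 ± 0.051 higher with both (adjusted p = 0.000123). With both, its 4 probe sets ran from -0.04 to 0.81, and 2 of them were called. The rise with BDNF lay in 1 probe set, 1418659_at, at 0.67 (adjusted p = 0.000452), while the other 3 lay between -0.12 and 0.06. It was lost with the median of probe sets (0.04, adjusted p = 0.585), with reference genes (0.10, adjusted p = 0.179) and without DMSO replicate 1, DMSO replicate 2 or BDNF replicate 1 at 12 h (adjusted p = 0.0853, 0.0526 and 0.0639). In that comparison 3 of the 10 reference genes were themselves called higher and 2 lower, where 41.0% of all genes were called. IBET858 at 12 h gave 0.12 ± 0.051 (adjusted p = 0.0507), which was called without DMSO replicate 1 at 2 h or, at 12 h, without DMSO replicate 3, IBET858 replicate 3 or replicate 2 of the combination (adjusted p = 0.0468, 0.0396, 0.0076 and 0.0487). BDNF on top of IBET858 at 12 h gave 0.14 ± 0.051 (adjusted p = 0.0315), and without IBET858 replicate 3 that was 0.09 and not called (adjusted p = 0.171). The same call was lost without replicate 1 or replicate 3 of the combination (adjusted p = 0.0746 and 0.147).

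Arntl rose with IBET858 at 12 h, with or without BDNF. Its arrays were -0.10, -0.01 and 0.01 with DMSO, 0.45, 0.53 and 0.40 with IBET858, 0.09, -0.13 and 0.09 with BDNF, and 0.59, 0.53 and 0.74 with both. The 6 arrays with IBET858 lay above the 6 without it, and DMSO and BDNF overlapped. The rise was 0.49 ± 0.08 with IBET858 (1.41-fold, adjusted p = 2.54e-05) and 0.65 ± 0.08 with both against DMSO (1.57-fold, adjusted p = 3.76e-07). Both Arntl probe sets rose in each of these comparisons.

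At 2 h Arntl read -0.39, -0.07 and -0.18 with DMSO, -0.03, -0.03 and -0.05 with IBET858, -0.44, -0.37 and -0.61 with BDNF, and -0.36, -0.40 and -0.45 with both. The BDNF arrays overlapped DMSO through DMSO replicate 1. BDNF lowered Arntl by 0.26 ± 0.08 (1.2-fold, adjusted p = 0.0188). Probe set 1425099_a_at carried this fall (-0.44), while 1457740_at changed by -0.08, and the call was lost without DMSO replicate 2, DMSO replicate 3 or BDNF replicate 3 at 2 h (adjusted p = 0.119, 0.0557 and 0.126). On top of IBET858, BDNF lowered Arntl by 0.37 ± 0.08 (1.29-fold, adjusted p = 0.00174), and by 0.26 in probe set 1457740_at alone, where it was not called (adjusted p = 0.135). The combination differed from DMSO by -0.19 ± 0.08 (adjusted p = 0.066), and by -0.28 without DMSO replicate 1, which was called (adjusted p = 0.00894).

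Nr1d2, one of the nuclear receptors that repress Arntl, fell with each treatment at 12 h. Its arrays were 0.09, 0.04 and 0.19 with DMSO, -0.34, -0.43 and -0.60 with IBET858, -0.49, -0.36 and -0.48 with BDNF, and -0.71, -0.77 and -0.67 with both. Treated and control arrays did not overlap, the single agents overlapped each other, and the combination was lowest. The falls were 0.56 ± 0.094 (1.48-fold, adjusted p = 3.04e-05), 0.55 ± 0.094 (1.46-fold, adjusted p = 5.61e-05) and 0.82 ± 0.094 (1.77-fold, adjusted p = 1.2e-07). The combination was lower than BDNF alone by 0.28 ± 0.094 (adjusted p = 0.019), a call lost without replicate 2 of BDNF or of the combination at 12 h (adjusted p = 0.0844 and 0.0672). It was lower than IBET858 alone by 0.26 ± 0.094 (adjusted p = 0.032), lost without IBET858 replicate 1 or 2 or replicate 1 or 2 of the combination at 12 h (adjusted p = 0.135, 0.0737, 0.0624 and 0.0989).

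These Nr1d2 changes rest on 1 of its 2 probe sets. In 1416958_at the differences from DMSO at 12 h were -1.16, -1.20 and -1.72, whereas in 1416959_at they were 0.03, 0.10 and 0.07. Over the 18 comparisons made, 1416958_at was called in 14, with changes of -1.72 to 0.64. The changes of the other ran from -0.19 to 0.11, and its lowest adjusted p in the same limma fit over probe sets was 0.368. Which of them reports the transcript was not tested. At 2 h the combination lay 0.24 ± 0.094 below DMSO (adjusted p = 0.0452), a call lost without any 1 of 13 arrays, at an adjusted p of up to 0.248 without DMSO replicate 2 at 2 h, and with the replicate number as a block (adjusted p = 0.0508).

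Nr1d1, the other receptor, was not called against DMSO in any of the 6 comparisons, whose changes ran from -0.18 to 0.24. IBET858 at 2 h was the 1 of the 6 with an unadjusted limma value under 0.05 (0.24 ± 0.11, adjusted p = 0.175). Its DMSO arrays at 2 h were -0.33, 0.21 and 0.04, a wide spread in which replicate 1 was again lowest. The IBET858 difference at 2 h was 0.085 without replicate 1 (adjusted p = 0.679) and 0.36 without replicate 2, where it was called (adjusted p = 0.0379). Without replicate 1 the BDNF difference was 0.034 in place of 0.19, and that of the combination -0.063 in place of 0.091. At 12 h BDNF had the lowest mean, with arrays at -0.32, -0.62 and -0.32, and the combination stood at -0.20, -0.04 and 0.03 without overlap. That difference was 0.35 ± 0.11 (1.27-fold, adjusted p = 0.0131), and it was lost without BDNF replicate 2 or replicate 3 of the combination at 12 h (adjusted p = 0.0993 and 0.0619).

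Dbp, the output factor that acts on D-boxes, had the largest fall from DMSO among the 10 genes. At 12 h its arrays read 0.02, 0.13 and 0.14 with DMSO, -0.71, -0.56 and -0.36 with IBET858, -1.39, -1.28 and -1.22 with BDNF, and -1.28, -1.24 and -1.08 with both. IBET858 arrays lay between DMSO and BDNF without overlap, and BDNF overlapped the combination. BDNF lowered Dbp by 1.40 ± 0.11 (2.63-fold, adjusted p = 9.93e-10), the 229th largest change of the 18193 genes. IBET858 lowered it by 0.64 ± 0.11 (1.56-fold, adjusted p = 3.29e-05) and the combination differed from DMSO by -1.30 ± 0.11 (2.46-fold lower, adjusted p = 8.2e-10).

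Both Dbp probe sets fell in each of these, by 1.15 and 1.64 with BDNF. The combination differed from BDNF alone by 0.10 ± 0.11, with a 95% interval of -0.13 to 0.32. At 2 h the Dbp arrays of DMSO were 0.00, 0.46 and 0.42, and those of the combination 0.03, -0.11 and -0.03, overlapping through DMSO replicate 1. The difference was -0.33 ± 0.11 (adjusted p = 0.0182), and -0.48 without that array. It was lost without DMSO replicate 2, DMSO replicate 3 or replicate 2 of the combination at 2 h (adjusted p = 0.104, 0.0822 and 0.0692), and neither probe set was called alone. Against IBET858 at 2 h the combination was 0.41 ± 0.11 lower (1.33-fold, adjusted p = 0.00751), and not called in probe set 1418174_at alone (-0.44, adjusted p = 0.065). BDNF at 2 h gave -0.21 ± 0.11 (adjusted p = 0.174), or -0.35 and called without DMSO replicate 1 (adjusted p = 0.00907).

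Whether IBET858 changed the effect of BDNF was tested by the interaction, the BDNF effect with IBET858 minus that without it. At 2 h 2 of the 10 genes were called, both lower, where 8.40% of all genes were called and 5.29% were called lower. They were Per2 at -0.96 ± 0.092 (adjusted p = 3.26e-07) and Cry1 at -0.63 ± 0.12 (adjusted p = 0.00183). Per1 stood at -0.43 ± 0.16 (adjusted p = 0.1), at -0.22 without DMSO replicate 1 at 2 h (adjusted p = 0.136), and was called without DMSO replicate 2 or 3 at 2 h (-0.55 and -0.53, adjusted p = 0.0238 and 0.0349). The Per2 interaction was called in each of its 3 probe sets, between -1.17 and -0.72.

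At 12 h 2 of the 10 were called, where the background was 16.2%. Per1 was lower at -0.62 ± 0.16 (adjusted p = 0.00846), with BDNF effects of 0.47 without and -0.14 with IBET858. Dbp was higher at 0.74 ± 0.15 (adjusted p = 0.00179), with BDNF effects of -1.40 without and -0.66 with IBET858. The Dbp interaction was 0.61 and not called in probe set 1418174_at alone (adjusted p = 0.0846). For Nr1d2 the mean gave 0.29 ± 0.13 (adjusted p = 0.155), called without DMSO replicate 1 at 2 h (adjusted p = 0.0389), and probe set 1416958_at gave 0.64 (adjusted p = 0.0264).

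**Figure D3:**
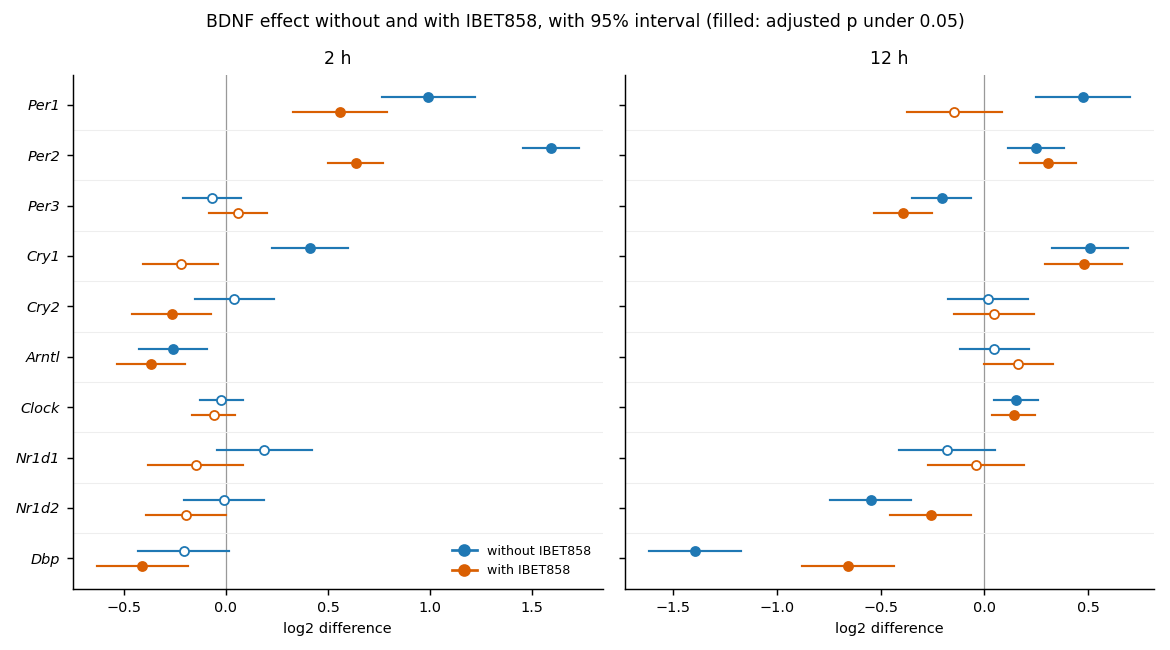
Log2 effect of BDNF on each clock gene without IBET858 (against DMSO) and with it (against IBET858 alone), with 95% intervals, at 2 h and 12 h; filled points had an adjusted p under 0.05. At 2 h the Per2 intervals lie apart (1.59 and 0.63) and the Cry1 estimates fall on opposite sides of 0 (0.41 and -0.22), and at 12 h the Dbp intervals lie apart (-1.40 and -0.66).

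Between 2 h and 12 h some clock genes changed in each of the 4 treatments. In DMSO 3 of the 10 fell, Per1, Per2 and Cry1, where 7.54% of all genes were called and 3.63% were called lower. Per1 fell by 0.42 ± 0.11 (1.34-fold, adjusted p = 0.0209), Per2 by 0.29 ± 0.065 (1.23-fold, adjusted p = 0.00716) and Cry1 by 0.30 ± 0.088 (1.24-fold, adjusted p = 0.0376). These calls are sensitive to the control arrays. Fitted on the DMSO groups alone, all 3 were lost (adjusted p = 0.298, 0.138 and 0.148), and without DMSO replicate 1 at 2 h the count rose to 6, with Per1 at -0.63 and with Cry2, Nr1d1, Nr1d2 and Dbp called lower and Cry1 lost (adjusted p = 0.0508). Leaving out replicate 2 or 3 at 2 h, or replicate 1 or 3 at 12 h, left 1. The Per2 call was also lost with the median of its probe sets. Fitted singly, 1 of the 3 Per2 probe sets was called lower and 2 were not called, with changes of -0.46 to -0.14.

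With IBET858 8 of the 10 changed with time, where 47.4% of all genes did. Arntl rose by 0.49 ± 0.08, Per3 by 0.47 ± 0.068 and Clock by 0.46 ± 0.051, and Dbp, Nr1d2, Cry2, Per2 and Per1 fell by 0.92, 0.66, 0.49, 0.40 and 0.35. The Per1 call was lost without IBET858 replicate 1 at 12 h (adjusted p = 0.0549). With BDNF 7 changed where 39.4% did: Per2 fell by 1.64 ± 0.065 (3.11-fold, adjusted p = 4.91e-14), Dbp by 1.38 ± 0.11, Per1 by 0.94 ± 0.11, Nr1d2 by 0.68 ± 0.094, Nr1d1 by 0.58 ± 0.11 and Cry2 by 0.30 ± 0.093, while Arntl rose by 0.49 ± 0.08. The Cry2 call was lost without BDNF replicate 2 at 12 h (adjusted p = 0.0598). With both, 7 changed where 60.8% did: Arntl rose by 1.02 ± 0.08 (2.03-fold, adjusted p = 3.54e-10), Cry1 by 0.89 ± 0.088 and Clock by 0.66 ± 0.051, and Dbp, Per1, Per2 and Nr1d2 fell by 1.16, 1.05, 0.73 and 0.72.

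**Figure D4:**
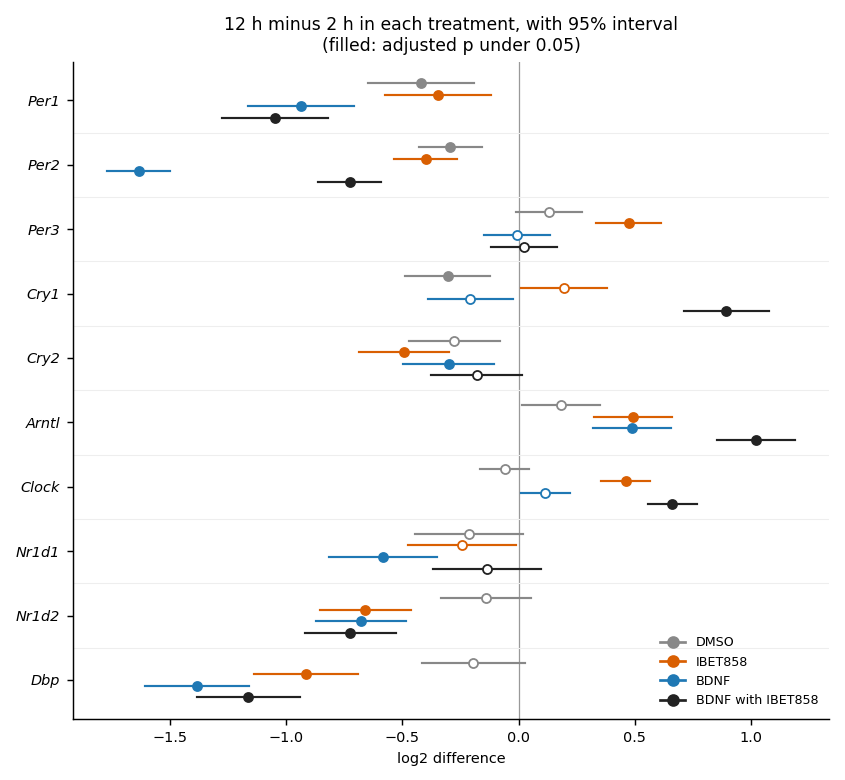
Log2 difference of 12 h from 2 h for each clock gene in each of the 4 treatments, with 95% intervals; filled points had an adjusted p under 0.05. Arntl lies farthest to the right with BDNF and IBET858 together (1.02), and Per2 (-1.64) and Dbp (-1.38) farthest to the left with BDNF.

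The effect of BDNF itself differed between the times for 4 of the 10 genes, all lower at 12 h, where 24.8% of all genes differed and 11.9% were lower. The difference was -1.34 ± 0.092 for Per2 (adjusted p = 1.18e-09), -1.19 ± 0.15 for Dbp (adjusted p = 5.19e-06), -0.54 ± 0.13 for Nr1d2 (adjusted p = 0.00426) and -0.52 ± 0.16 for Per1 (adjusted p = 0.017). The Per1 difference was lost without DMSO replicate 2 at 12 h (adjusted p = 0.0534) and when only the groups of the contrast were fitted (adjusted p = 0.0763), and it was -0.30 without DMSO replicate 1 at 2 h (adjusted p = 0.00838). The effect of IBET858 differed for 6 of the 10, against a background of 33.1%. It was higher at 12 h for Clock by 0.52 ± 0.071, Cry1 by 0.50 ± 0.12, Per3 by 0.34 ± 0.096 and Arntl by 0.31 ± 0.11, and lower for Dbp (-0.72 ± 0.15) and Nr1d2 (-0.52 ± 0.13). Arntl had the highest adjusted p of these, 0.0394, which exceeded 0.05 without DMSO replicate 2, DMSO replicate 3 or any 1 IBET858 array at 2 h, or without DMSO replicate 1, DMSO replicate 2, IBET858 replicate 1 or IBET858 replicate 2 at 12 h (0.0517 to 0.125).

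Probe sets of 1 gene did not always move together. Among the 6 of Per3, 1458176_at was called in 12 of the 18 comparisons, 1421087_at and 1442243_at in 9 each, 1441445_at in 6, and 1421086_at and 1460662_at in 1 each. With IBET858 at 12 h 4 of the 6 rose, up to 1.49 in 1458176_at, and 1421086_at stood at 0.00. For Arntl, 1425099_a_at was called in 12 of 18 and 1457740_at in 6. Where in the transcripts these probe sets lie was not analysed here.

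**Figure D5:**
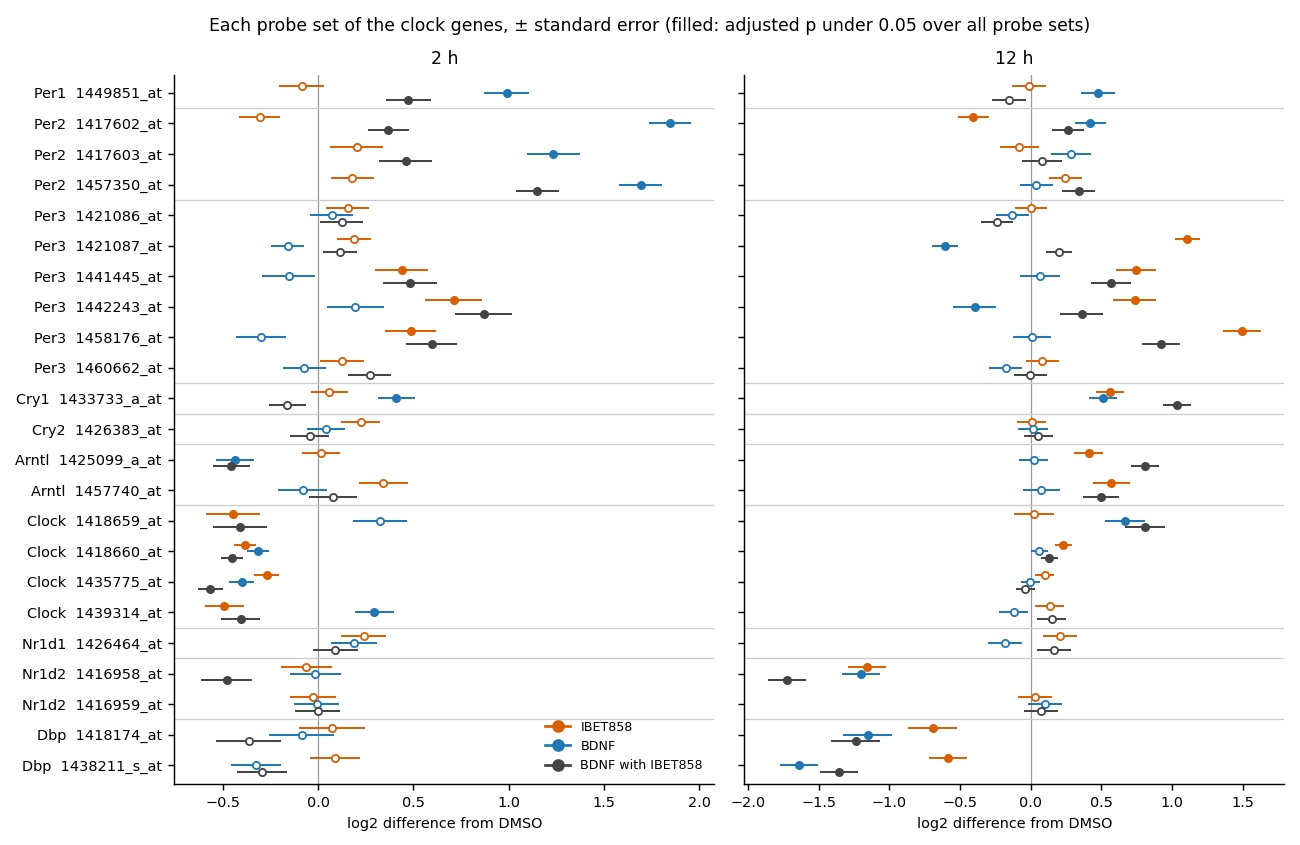
Log2 difference from DMSO ± standard error of each of the 23 probe sets at 2 h and 12 h, for IBET858, BDNF and BDNF with IBET858; filled points had an adjusted p under 0.05 over all probe sets and scales differ between panels. The 3 Per2 probe sets rise together with BDNF at 2 h (1.23 to 1.85), while the 2 of Nr1d2 separate at 12 h (-1.72 and 0.07 with both agents).

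The 8 groups can be ordered by the mean of each gene. Per1 and Per2 had BDNF at 2 h first (1.06 and 1.61) and the combination at 2 h second (0.54 and 0.68), each apart from its neighbours. For Per1 the groups BDNF at 12 h, DMSO at 2 h and IBET858 at 2 h followed with overlapping arrays. Per3 was highest with IBET858 at 12 h (0.58), and Cry1 and Clock were highest with the combination at 12 h (0.63 and 0.23), each apart from the next group. Arntl was also highest there (0.62), but its arrays overlapped those of IBET858 at 12 h (0.46). Nr1d2 was lowest with the combination at 12 h (-0.72), apart from its neighbour, and Dbp was lowest with BDNF at 12 h (-1.30), overlapping the combination (-1.20). Neighbouring groups of Nr1d1 overlapped throughout the order, and those of Cry2 were apart at 2 places.

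Across the 8 group means Per1 and Per2 had a Pearson r of 0.93, Nr1d2 and Dbp of 0.93, Per1 and Arntl of -0.85, and Arntl and Nr1d2 of -0.83. These are descriptions over 8 points that share arrays, times and treatments. The gene with the most similar pattern, among all that are no clock genes of the 10, was Slc2a3 for Per1 (r = 0.966), followed by 5830468F06Rik (0.964) and Ovol2 (0.963). For Per2 these were Zfp622 (0.987), Slc2a3 (0.985) and Tlnrd1 (0.981), and for Per3 Kyat1 (0.994), Trnp1 (0.985) and Desi1 (0.985). Cry1 was most like Sh3rf1 (0.979), Ubl3 (0.974) and Ythdc1 (0.968), and Cry2 most like P2ry2 (0.982), Smtnl1 (0.974) and Cga (0.970). Some of these genes moved little. From lowest to highest group mean P2ry2, Smtnl1 and Cga spanned 0.368, 0.244 and 0.3, and 5830468F06Rik 0.307.

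Arntl was nearest to Mrtfa (0.996), Tmem201 (0.989) and Fgfr1op2 (0.989), and Clock to Ddx24 (0.983), Dcp1a (0.982) and Lins1 (0.980). The nearest genes were Cntfr (0.972), 1700001K19Rik (0.960) and Lrrc17 (0.960) for Nr1d1, of which 1700001K19Rik and Lrrc17 spanned only 0.187 and 0.231. For Nr1d2 they were Elapor1 (0.993), Clybl (0.991) and St8sia2 (0.989), and for Dbp Frem2 (0.990), Leprot (0.990) and Srr (0.986). An r over 0.95 was reached by 288 genes with Nr1d2, 166 with Dbp and 109 with Arntl, but by 10 with Per2 and 5 with Per1.

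The wider clock was followed in a list of 28 other genes of the loop, its kinases and its outputs, of which 26 were measured. With BDNF at 2 h 9 rose and 4 fell, where 27.9% of all genes were called. The largest changes were Nfil3 (0.89 ± 0.18), a repressor that competes with DBP for D-boxes, Bhlhe40 (0.67 ± 0.12), a repressor at E-boxes, Tipin (-0.58 ± 0.093) and Usp2 (0.54 ± 0.11), a deubiquitinase. With IBET858 at 2 h 2 rose and 5 fell (14.9% of all genes were called), led by Sirt1 (1.12 ± 0.081), a deacetylase, Rorb (0.63 ± 0.21), Bhlhe40 (-0.58 ± 0.12) and Fbxw11 (-0.30 ± 0.08). With both, 3 rose and 11 fell against DMSO (41.8% of all genes), led by Sirt1 (2.03 ± 0.081) and Prkaa1 (-0.99 ± 0.13), a subunit of the AMP kinase. Their median change was -0.12 there, against 0.03 for all genes.

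At 12 h 12 of the 26 rose and 7 fell with IBET858 (48.7% of all genes were called), led by Npas2 (-1.43 ± 0.17), a relative of Clock, Sirt1 (1.37 ± 0.081), Bhlhe40 (-0.97 ± 0.12) and Arntl2 (0.77 ± 0.096), a relative of Arntl. With BDNF 7 rose and 4 fell (41.0% of all genes), led by Hlf (-0.98 ± 0.17), a relative of Dbp, Tipin (-0.85 ± 0.093), Nfil3 (0.78 ± 0.18) and Npas2 (0.62 ± 0.17). With both against DMSO 15 rose and 6 fell (53.0% of all genes), led by Sirt1 (1.51 ± 0.081), Usp2 (-1.03 ± 0.11), Npas2 (-0.99 ± 0.17) and Csnk2a1 (0.97 ± 0.063). The list's median change was 0.27 in this last comparison and -0.01 over all genes. Against BDNF alone the combination raised Hlf by 1.76 ± 0.17 while Dbp differed by 0.10 ± 0.11. The interaction was called for 6 of the 26 at each time, where 8.40% of all genes were called at 2 h and 16.2% at 12 h. Among them were Bhlhe40 at 12 h (1.48 ± 0.17) and Usp2 at 2 h (-0.80 ± 0.16).

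Lists of other stimulus-responsive genes were set beside Per1, Per2 and Cry1. These lists were chosen with earlier results of these data known, so their counts are no independent comparison. All 12 activity-induced transcription factors (Fos, Egr1, Npas4 and others) rose with BDNF at 2 h, by a median of 1.63, where 27.9% of all genes were called. IBET858 alone raised 7 of them at 2 h (median 0.42), where 14.9% of all genes were called. The combination had 6 higher and 2 lower than BDNF alone (median 0.28), against a background of 27.1%. Their interaction at 2 h was called lower for 3 of the 12, where 5.29% of all genes were called lower. Its median was -0.25 beside 0.02 over all genes. The interaction had the same sign for Per2 and Cry1. Unlike the 6 list genes that were higher when IBET858 was added to BDNF, Per2 and Cry1 were lower, as were 2 of the list. Per2 and Cry1 fell by 0.93 and 0.57, and IBET858 alone was called for neither at 2 h. Per1 also fell when IBET858 was added to BDNF, by 0.52, but its interaction was not called (limma, adjusted p = 0.1). Of 7 glucocorticoid-regulated genes 4 rose with BDNF at 2 h (median 0.29), against a background of 27.9%. With IBET858 at 2 h 4 rose and 1 fell (median 0.33), against 14.9%.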

How the data were processed

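Expression was measured on 24 Affymetrix mouse arrays, 3 in each of 8 groups. The deposited table holds log2 values made by the authors with RMA, per the submitters' processing notes. In the deposited table each of the 45101 probe sets has a median of 0 over the arrays (tolerance 1e-06), so differences between groups can be read and levels cannot. Array annotation listed 35890 probe sets, 34958 of them with 1 gene symbol and 932 with several, and 34754 of the former were matched to current symbols by Entrez ID. The value of a gene is the mean of its single-gene probe sets. Python 3.11.15 (pandas 2.3.3, numpy 2.4.6, matplotlib 3.10.9) prepared and plotted the values.

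limma 3.58.1 in R 4.3.3 was fitted to 18193 genes with 1 mean per group (16 residual degrees of freedom), and p-values were adjusted by Benjamini-Hochberg within each of 18 contrasts. Each contrast was called at an adjusted p under 0.05, and probe sets were also fitted singly over the whole table. The code was tested on simulated data. The number of arrays limits the precision. Alternatives were centring of arrays, the summary of probe sets, array weights, a replicate block, smaller fits and leaving out arrays. Leaving out DMSO replicate 1 at both times and a block within the DMSO arrays were chosen after seeing the data. Same-numbered DMSO arrays at 2 h and 12 h deviated together (correlations of 0.509, 0.239 and 0.316 over genes). This pairing was read from the data and not from the labels, and the main fit did not use it. The block within the DMSO arrays was run only for the DMSO time difference. The time differences of the IBET858 and BDNF effects were not fitted with that block.

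All 10 clock genes are named in the contrasts. From 26 other clock genes up to 4 called genes with the largest change were named per contrast, with 3 genes of most similar pattern for each clock gene. The members and lists were chosen with earlier results of these data known.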

Additional observations from a re-analysis of the deposited data

Results flagged for a closer look

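A test of the difference itself found that the effect of BDNF differed with IBET858 for 4 gene and time pairs. The interaction was -0.9567 for Per2 and -0.6323 for Cry1 at 2 h (limma, adjusted p = 3.26e-07 and 0.00183), and -0.6192 for Per1 and 0.7379 for Dbp at 12 h (adjusted p = 0.00846 and 0.00179).

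The effect of IBET858 differed between 12 h and 2 h for 6 clock genes by the same limma fit. It was higher at 12 h by 0.3432 for Per3, 0.5006 for Cry1, 0.311 for Arntl and 0.5209 for Clock. The difference was -0.5204 for Nr1d2 and -0.7211 for Dbp. The effect of BDNF differed for 4, by -0.5162 for Per1, -1.342 for Per2, -0.5382 for Nr1d2 and -1.189 for Dbp. The values for Nr1d2 rest on probe set 1416958_at, and the Arntl value is lost in 13 of the alternative settings.

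Control probe sets outside the gene comparisons also differed between groups. The mean of the spiked poly-A controls was 0.956 higher with IBET858 than with DMSO at 12 h and 0.556 higher with both agents than with BDNF at 12 h. The part of this difference in the results on clock genes was not tested. Groups of 3 arrays are too small for the check of single outlying samples.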

How the results depend on the processing

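Of 180 changes of the 10 genes, 92 were called, and 68 of these were called under each of the 34 settings other than single probe sets, 1 of which applied to the DMSO time difference only; the other 24 were lost under at least 1, and no called change reversed in those settings. The number of clock genes called moved by over 1.5 times as follows. For IBET858 at 2 h it was 2, and 1 with the median of probe sets or 4 with array weights. For both agents against DMSO at 2 h it was 6, and 3 when only the groups of the contrast were fitted. For both against IBET858 at 2 h it was 5, and 3 with plain probe sets. For the interaction at 12 h it was 2, and 1 with plain probe sets or 4 genes with each probe set fitted alone. For the BDNF effect between the times it was 4, and 7 with each probe set fitted alone. For DMSO between the times it was 3, and 8 with array weights, 0 with only the DMSO groups, 7 without DMSO replicate 1 at 2 h and IBET858 replicate 3 at 12 h together, and 1 to 6 with 1 array left out. The causes were not tested.

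With 1 array left out the counts at 2 h ran from 2 to 3 for IBET858, 3 to 5 for BDNF, 4 to 7 for both against DMSO, 5 to 6 against BDNF, 4 to 6 against IBET858 and 2 to 3 for the interaction. At 12 h they ran from 5 to 6, 5 to 7, 7 to 8, 4 to 7, 4 to 7 and 2 to 3 in the same order. Between the times they ran from 7 to 10 with IBET858, 7 to 9 with BDNF and 7 to 8 with both, and from 5 to 7 and 3 to 5 for the differences of the IBET858 and BDNF effects.

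A single probe set had the opposite sign to the gene's mean in 25 values, 19 where the mean was called and 6 where the probe set was called and the mean was not. For Nr1d2, 1416959_at gave 0.030 with IBET858, 0.10 with BDNF and 0.075 with both against DMSO at 12 h, 0.045 with both against IBET858, and 0.055 and 0.11 for the time differences of the IBET858 and BDNF effects. For Per3, BDNF at 12 h gave 0.064 in 1441445_at and 0.011 in 1458176_at, and the latter gave 0.46 between the times with BDNF. Per3 in 1421086_at gave -0.24 with both against DMSO and -0.11 against BDNF at 12 h, -0.080 and -0.29 between the times with IBET858 and with both, and -0.15 for the time difference of the IBET858 effect. Per3 in 1460662_at gave -0.0043 and -0.045 for both against DMSO at 12 h and for that time difference. For Clock, 1439314_at gave 0.30 with BDNF at 2 h, -0.12 with BDNF at 12 h, -0.31 between the times with BDNF and -0.42 for the time difference of the BDNF effect. Clock in 1435775_at gave -0.0027 with BDNF, -0.0375 with both against DMSO and -0.14 with both against IBET858 at 12 h, the last being -0.10 in 1418660_at. For Per2, 1457350_at gave 0.30 with both against BDNF at 12 h.

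The labels do not say what a shared replicate number means, and in 27 of the 28 pairs of groups the numbers did not pair the arrays by the criterion used. Of 84 same-number pairs 10 had a correlation of deviations over 0.1, and 10 of 24 arrays correlated best with their own number. The exception was DMSO at 2 h and 12 h, where a replicate block within the DMSO arrays, added after seeing the data, kept the calls of Per1, Per2 and Cry1 (adjusted p = 0.00186, 0.00297 and 0.0284) and a count of 3. With the replicate number as a block over all arrays 3 calls were lost, Nr1d2 for both against DMSO at 2 h (-0.24, adjusted p = 0.0508), Cry2 for both against IBET858 at 2 h (-0.27, adjusted p = 0.0543) and the time difference of the IBET858 effect on Arntl (0.31, adjusted p = 0.0509), and the other 89 calls were kept. Centring on 10 reference genes moved the median of all genes by -0.108 for both against DMSO at 12 h. Of these 10 genes 6 were themselves called in that comparison. A filter on dim probe sets was not run, since the centred values hold no levels, and signal over background is therefore unknown.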
